A study of Mus musculus with 9 samples.

Results

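Adipocytes, the fat-storing cells of adipose tissue, are described here through 10 genes measured in mouse uterus by RNA sequencing. The genes were taken by symbol from a deposited table of 18094 genes, and all 10 were found in it and passed the low-count filter. They are Adipoq, Lep, Retn and Cfd, which encode secreted adipokines, Plin1 and Cidec, which encode proteins of the lipid droplet, Fabp4 and Car3, which encode abundant cytosolic proteins of fat cells, Lipe, which encodes hormone-sensitive lipase, and Pparg, which encodes the nuclear receptor that drives fat cell differentiation. The set was named for adipocytes before these values were described, but with earlier results of these data known. Across the libraries 8 of the genes varied together, while Lipe and Pparg followed a different course. Varying together does not by itself name a cell type.

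White adipocytes hold a single large lipid droplet coated by perilipin 1, and enlarge it with the help of CIDEC. Hormone-sensitive lipase breaks the stored fat down, and the cells release hormones such as adiponectin and leptin. PPARG, paired with an RXR receptor, is known to activate most of these genes, together with C/EBP factors. The uterus itself is made of epithelium, stroma and smooth muscle, and hangs from the mesometrium, a fold of peritoneum that carries vessels and fat. Several of the genes are also known outside fat, Fabp4 in capillary endothelium and macrophages, Car3 in skeletal muscle, and Pparg in epithelia and macrophages.

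The study compared 9 libraries from the uterus of female mice at 13 weeks of age, 3 in each of 3 groups. The tamoxifen group, titled AMS, received tamoxifen at 1 mg/kg by mouth on days 1 to 5 of life, a treatment used to model adenomyosis, and later vehicle. The tamoxifen+primidone group, titled AMS_P, received the same tamoxifen and was then injected with primidone, an anticonvulsant drug, into the abdominal cavity at 2 mg/kg each day for 3 weeks, starting at week 10. The control group received the solvent alone as newborns and vehicle as adults (vesicle in the sample labels, vehicle in the series' design text, which gives 3 mice a group). The sources used here do not give the strain, the stage of the estrous cycle or the way the uterus was trimmed.

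Library totals ran from 36393120 to 39958443 counts. Levels are CPM, counts per 1000000 of library sizes scaled by the trimmed mean of M-values (TMM). Uterine markers were present in each library, with the estrogen receptor gene Esr1 at 354 ± 9.75 CPM (control), 292 ± 16 (tamoxifen) and 332 ± 26.6 (tamoxifen+primidone, SD, n = 3). Because whole tissue was sequenced, a change in the number of cells of a type and a change in the RNA per cell cannot be told apart.

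The promoters show how the genes differ in the sequence at their start. RefSeq promoters of build GRCm38.p6, each 300 bases long and reaching from 250 bases before the start to 50 after it, were found for 8 of the 10 genes, all but Fabp4 and Car3, with 12 starts in all. They were searched on both strands for the nuclear receptor half-site AGGTCA, for DR1, the PPARG-RXR form of that site (AGGTCANAGGTCA, which holds the half-site), and for the C/EBP palindrome TTGCGCAA. These letters occur in 16.3%, 0.0396% and 0.183% of 32851 promoters. The Adipoq promoter (chr16:23146286-23146585, plus strand) is shown as that of a gene that varied with the other 7, the Lep promoter (chr6:29059971-29060270, plus strand) as the single one with the C/EBP palindrome, and the second listed start of Pparg (chr6:115362099-115362398, plus strand) as one of a gene that did not vary with them. Capitals mark matches, and the Adipoq promoter has none:
Adipoq: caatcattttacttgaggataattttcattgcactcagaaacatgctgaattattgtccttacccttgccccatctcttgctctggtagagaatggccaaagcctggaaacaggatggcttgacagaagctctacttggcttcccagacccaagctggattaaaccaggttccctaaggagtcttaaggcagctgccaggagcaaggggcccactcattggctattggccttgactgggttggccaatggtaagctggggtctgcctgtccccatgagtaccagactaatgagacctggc
Lep: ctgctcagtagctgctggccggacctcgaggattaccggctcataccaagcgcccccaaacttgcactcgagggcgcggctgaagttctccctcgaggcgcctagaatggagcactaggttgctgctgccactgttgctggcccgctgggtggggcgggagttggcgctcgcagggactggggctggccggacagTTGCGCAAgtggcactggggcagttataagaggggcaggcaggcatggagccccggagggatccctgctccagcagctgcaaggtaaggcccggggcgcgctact
Pparg: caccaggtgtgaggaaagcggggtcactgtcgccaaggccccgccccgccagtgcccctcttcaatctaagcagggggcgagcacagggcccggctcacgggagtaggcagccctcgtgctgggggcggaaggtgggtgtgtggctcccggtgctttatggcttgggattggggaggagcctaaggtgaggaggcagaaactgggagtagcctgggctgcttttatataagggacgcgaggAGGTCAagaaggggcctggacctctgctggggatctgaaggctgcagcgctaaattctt

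The Lep palindrome began 55 bases before the start. The half-site of the Pparg promoter shown began 9 bases before the start, and another lay 28 bases before the first listed Pparg start. The DR1 letters were in none of the 12 promoters. By base composition, CpG dinucleotides numbered 0 in the Adipoq promoter and 2 in each of those of Plin1, Cfd and Retn, against a median of 7 over all promoters, of which 23.3% held at most 2. They numbered 6 and 7 in the pair of Cidec promoters and 19 in that of Lep. Lipe and Pparg had starts of both kinds, with 19 and 2 CpG in the Lipe promoters and 44, 13 and 2 in those of Pparg. Counts per gene do not tell which start was used.

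The adipokines varied widely within each group given tamoxifen. Adipoq, which encodes adiponectin, stood at 1.83, 3.11 and 2.83 CPM in control replicates 1 to 3, at 7.24, 3.2 and 26.3 in tamoxifen replicates and at 8.48, 27.7 and 6.04 in tamoxifen+primidone replicates. Each of the 6 libraries from mice given tamoxifen was above the 3 controls, tamoxifen 2 by a margin smaller than the control spread, and tamoxifen 3 and tamoxifen+primidone 2 stood more than 3 times above the others of their groups. Cfd, which encodes adipsin, the complement factor D secreted by fat, stood at 4.86, 7.98 and 5.15 CPM in the controls, 31.5, 11.6 and 92.7 with tamoxifen and 18.4, 130 and 30.2 with tamoxifen+primidone. The same pair of libraries was highest, and again no library of a mouse given tamoxifen lay within the control range.

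Leptin and resistin, hormones of energy balance and glucose metabolism, were among the least abundant members. Lep stood at 1.1, 0.803 and 1.89 CPM in the controls, 2.41, 1.05 and 8.05 with tamoxifen and 4.03, 7.4 and 2.67 with tamoxifen+primidone. The highest of the 9 values, in tamoxifen 3, rests on 315 counts. Retn stood at 0.392, 0.723 and 0.701 CPM in the controls, 3.21, 0.69 and 8.28 with tamoxifen and 2.25, 11.2 and 2.59 with tamoxifen+primidone. For both genes tamoxifen 2 lay within the control range, while the 3 tamoxifen+primidone libraries lay above it. Retn counts in the controls were 15, 27 and 26, so its control level carries a large counting error.

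Genes of the lipid droplet were highest in the same pair of libraries. Plin1 stood at 0.549, 1.1 and 1.08 CPM in the controls, 3.26, 0.91 and 12.4 with tamoxifen and 3.21, 14.9 and 2.19 with tamoxifen+primidone. Cidec stood at 2.33, 4.1 and 3.91 CPM in the controls, 7.32, 2.79 and 32.3 with tamoxifen and 7.7, 30.6 and 6.92 with tamoxifen+primidone. Tamoxifen 2 again lay within the control range, and the ratio of the highest to the lowest tamoxifen library was 13.6 for Plin1 and 11.6 for Cidec.

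Car3, carbonic anhydrase 3, had the highest length-scaled level of the 10 genes, with a mean of 47.2 FPKM (fragments per kilobase of transcript, scaled to library size) over the 9 libraries. It stood at 14.3, 21.2 and 17 CPM in the controls, 55.3, 23.9 and 190 with tamoxifen and 54.3, 224 and 46.5 with tamoxifen+primidone. Fabp4, the adipocyte fatty acid binding protein, stood at 14.7, 13.6 and 17.1 CPM in the controls, 16.9, 10.7 and 60.3 with tamoxifen and 18.3, 72.1 and 14.4 with tamoxifen+primidone. For Fabp4 the other 4 libraries of mice given tamoxifen lay between 10.7 and 18.3 CPM, around the control range, and tamoxifen 3 and tamoxifen+primidone 2 stood far above it.

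Lipe and Pparg differed from these 8 genes. Lipe stood at 46, 47.1 and 36.7 CPM in the controls, 37.5, 46.7 and 52.2 with tamoxifen and 42, 51.2 and 32.2 with tamoxifen+primidone, a range of 1.62-fold over all 9 against 6.72-fold to 28.6-fold for the 8. Its 2 highest libraries were still tamoxifen 3 and tamoxifen+primidone 2, by a small margin. Pparg stood at 12, 7.07 and 13.3 CPM in the controls, 17.1, 8.72 and 9.66 with tamoxifen and 3.05, 6.03 and 5.71 with tamoxifen+primidone. It was lower in each tamoxifen+primidone library than in any of the other 6, and the pair with the most Adipoq did not stand out.

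**Figure D1:**
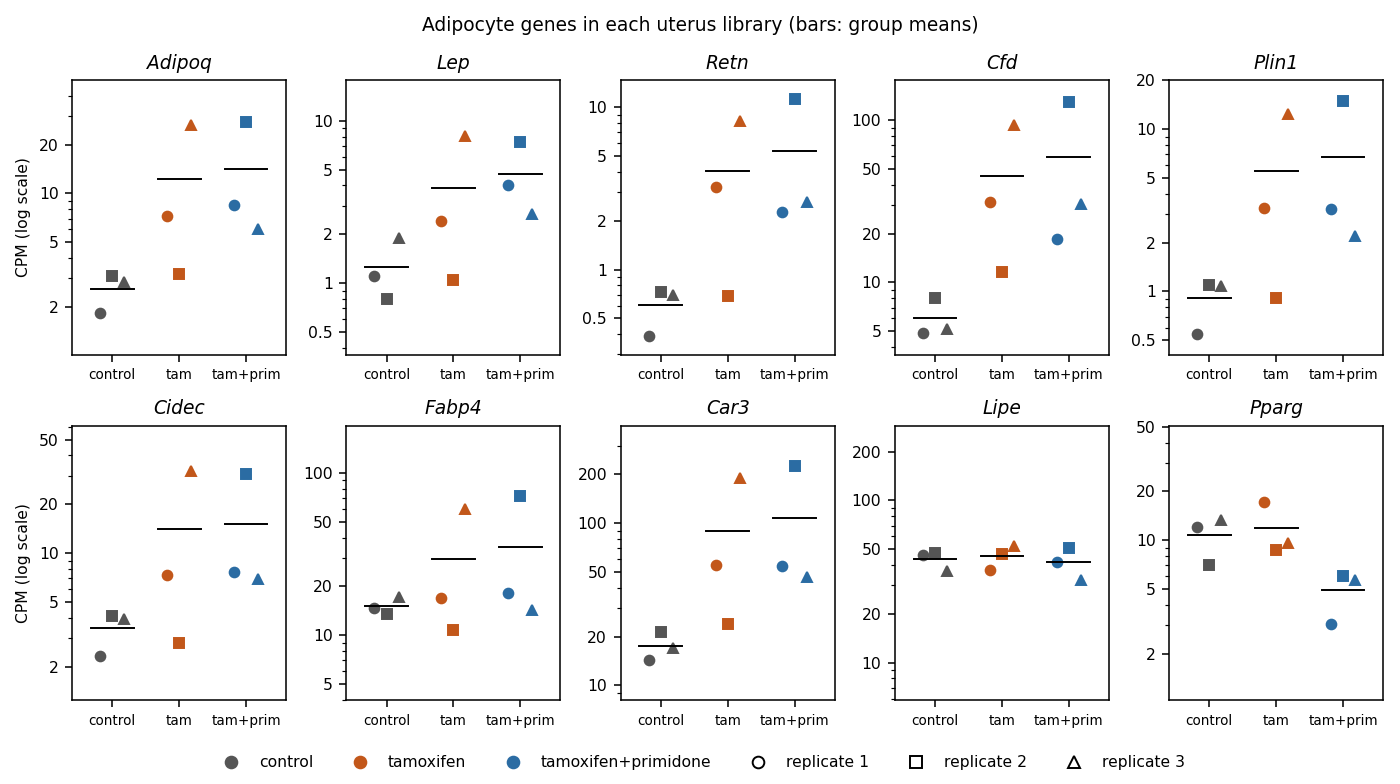
CPM (log scale, a separate range per panel spanning the same number of folds) of the 10 genes in each library, with tam for tamoxifen, tam+prim for tamoxifen+primidone, symbols for replicate numbers and bars at the group means. Tamoxifen replicate 3 (triangle) and tamoxifen+primidone replicate 2 (square) are the 2 highest for all genes but Pparg, as for Adipoq at 26.3 and 27.7 CPM, while Lipe spans 32.2 to 52.2 CPM.

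For 9 of the 10 genes, all but Pparg, the 2 highest of the 9 libraries were tamoxifen 3 and tamoxifen+primidone 2, a pair named after these values were seen. The same held for 2.09% of the 15186 tested genes. Summed over the 10 genes, these libraries held 492 and 575 CPM, against 98 to 107 in the controls and 110 to 182 in the other 4. Within groups the spread of Adipoq was 1.12 on the log2 scale (pooled SD) and that of Plin1 1.39, against a median of 0.19 over all tested genes, and 2.43% and 0.935% of tested genes varied more. For Lipe the spread was 0.27 and for Pparg 0.52. In control libraries, where the set was lowest, the order of length-scaled levels was Fabp4 (17.1 ± 1.79 FPKM, SD, n = 3), Car3 (11.2 ± 2.36), Lipe (9.64 ± 1.38), Cfd (6.4 ± 1.93), Pparg (3.12 ± 0.912), Adipoq (2.06 ± 0.55), Cidec (1.93 ± 0.555), Plin1 (0.466 ± 0.162), Retn (0.462 ± 0.143) and Lep (0.379 ± 0.164). Neighbours in that order lay further apart than the sum of their SDs for Fabp4 and Car3, for Cfd and Pparg and for Cidec and Plin1, and the other neighbours did not differ beyond that spread.

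Within a library, Car3, Cidec, Plin1 and Retn kept nearer to fixed proportions with Adipoq than the other 5 genes did. The ratio of Car3 to Adipoq CPM was 7.8, 6.82 and 6 in the controls, 7.64, 7.48 and 7.24 with tamoxifen and 6.41, 8.09 and 7.7 with tamoxifen+primidone. This ratio spanned 1.35-fold while Car3 itself spanned 15.7-fold. Cidec to Adipoq spanned 1.59-fold (0.871 to 1.38), Plin1 to Adipoq 1.89-fold (0.284 to 0.537) and Retn to Adipoq 2.07-fold (0.214 to 0.443). The ratio of Cfd to Adipoq was 2.35 ± 0.461 in the controls, 3.83 ± 0.447 with tamoxifen and 3.96 ± 1.56 with tamoxifen+primidone (SD, n = 3), and its 2.17 in tamoxifen+primidone 1 lay within the control range. It spanned 2.75-fold. Lep to Adipoq spanned 2.58-fold (0.259 to 0.667), with both ends of that range in control libraries, and was 0.508 ± 0.219 in the controls, 0.322 ± 0.0142 with tamoxifen and 0.395 ± 0.112 with tamoxifen+primidone.

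Fabp4, Lipe and Pparg had the widest ratios. Fabp4 per Adipoq was 6.15 ± 1.85 in the controls, 2.66 ± 0.602 with tamoxifen and 2.38 ± 0.223 with tamoxifen+primidone, since its control level was already 15.1 ± 1.77 CPM. Lipe per Adipoq ran from 25.1 in control 1 down to 1.85 in tamoxifen+primidone 2, and Pparg per Adipoq from 6.54 to 0.218 in the same libraries. Between the libraries with the most and the least Adipoq of a group, the added CPM per added CPM of Adipoq were within 1.5-fold of each other in the tamoxifen and tamoxifen+primidone groups for 7 genes. They came to 7.21 and 8.19 for Car3, 3.51 and 4.62 for Cfd, 2.15 and 2.67 for Fabp4, 1.28 and 1.1 for Cidec, 0.498 and 0.586 for Plin1, 0.329 and 0.397 for Retn and 0.303 and 0.218 for Lep. For Lipe they were 0.24 and 0.877, and for Pparg 0.041 and 0.0147, further apart. In the controls, where Adipoq differed by 1.28 CPM, the same quotient was 5.41 for Car3, 2.44 for Cfd, 1.39 for Cidec, 0.43 for Plin1, 0.259 for Retn and 0.882 for Lipe, and negative for Lep (−0.231), Fabp4 (−0.913) and Pparg (−3.84). These control quotients rest on 116 against 70 counts of Adipoq and carry a large counting error.

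**Figure D2:**
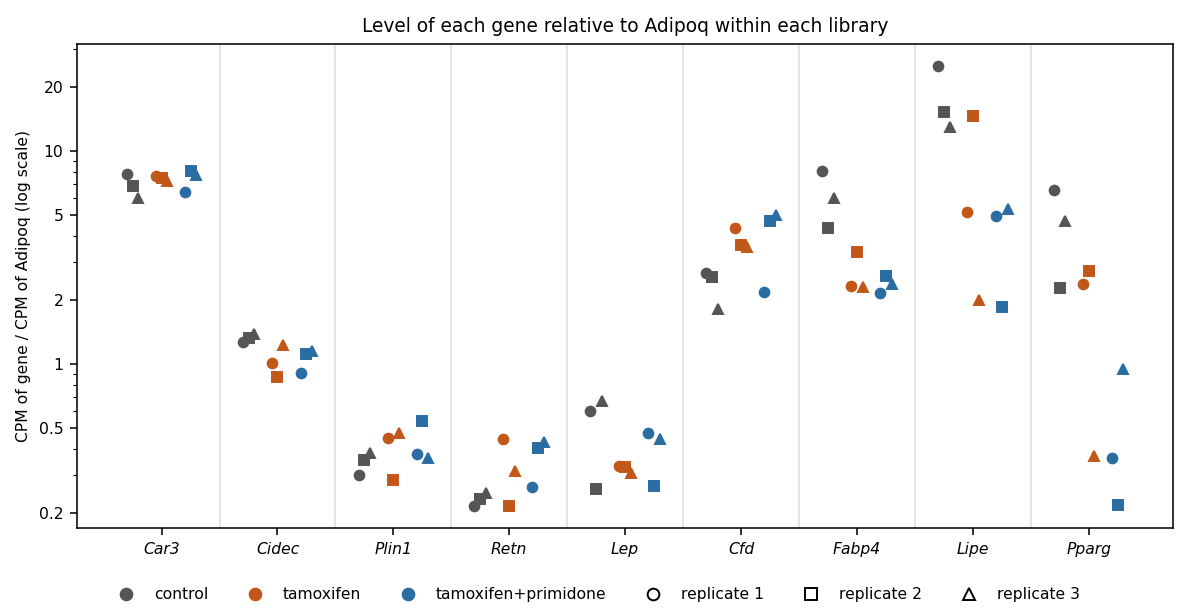
CPM of each gene divided by that of Adipoq in the same library (log scale), with colours for groups and symbols for replicate numbers. Car3 stays between 6 and 8.09 in all 9 libraries, while Fabp4 is highest in the controls and Lipe and Pparg spread over more than 10-fold.

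The first comparison asked how the set differed between tamoxifen and control libraries. All 10 log2 fold changes were positive, with a median of 2.14 against 0 over all tested genes, and 8 genes had group means higher by 1.94-fold (Fabp4) to 7.55-fold (Cfd). With the quasi-likelihood test of edgeR, 0 of the 10 genes passed at an adjusted p of 0.05, where 1.53% of tested genes did. At an unadjusted p under 0.05 there were 5 of 10, against 17.8% of tested genes, and DESeq2 called Cfd alone (adjusted p = 0.04), against 7.11%. Ranges did not overlap, tamoxifen being higher, for Adipoq, Cfd and Car3, and for 12.7% of tested genes. For Adipoq the gap was within counting error, with 116 counts in both tamoxifen 2 (3.2 CPM) and control 2 (3.11 CPM). Cfd changed by 2.92 ± 1.01 on the log2 scale (SE, edgeR adjusted p = 0.2), from 6 ± 1.72 to 45.2 ± 42.3 CPM (SD, n = 3). Adipoq changed by 2.24 ± 0.86 (edgeR adjusted p = 0.23), from 2.59 ± 0.672 to 12.2 ± 12.3 CPM, and Retn by 2.74 ± 0.94 (edgeR adjusted p = 0.18). Lipe, at 0.07 ± 0.18, and Pparg, at 0.14 ± 0.35, had the smallest values.

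Without tamoxifen 3, the median over the set was 0.78 in place of 2.14, with Adipoq at 1.01, Cfd at 1.84, Cidec at 0.55 and Fabp4 at −0.13. None of the 10 passed edgeR in that fit (smallest adjusted p = 0.41), where 0.397% of tested genes did. With both tamoxifen 3 and tamoxifen+primidone 2 left out none of the 10 passed either (smallest adjusted p = 0.12), where 0.706% of tested genes did.

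In the second comparison, of tamoxifen+primidone with tamoxifen libraries, the 8 genes lay close together. Their log2 fold changes ran from 0.09 ± 0.91 for Cidec to 0.4 ± 0.92 for Cfd, and the group means of Adipoq were 14.1 ± 11.9 and 12.2 ± 12.3 CPM (SD, n = 3). The standard errors of the 8 genes, 0.68 to 0.95 on the log2 scale, leave room for a difference in either direction. Pparg stood at 4.93 ± 1.64 CPM against 11.8 ± 4.61 in tamoxifen libraries, 2.4-fold lower (log2 fold change −1.26 ± 0.35, edgeR unadjusted p = 0.0054, adjusted p = 0.18). It was the single member whose ranges did not overlap, tamoxifen+primidone being lower, as for 8.55% of tested genes. No member was higher without overlap, where 8.08% of tested genes were. With edgeR 0 of 10 members passed, where 0.0132% of tested genes did, 1 of 10 had an unadjusted p under 0.05, where 13.8% did, and DESeq2 called Pparg alone (adjusted p = 0.012), against 3.9%. The direction of the 8 genes turned with the libraries used. Their log2 fold changes were between 1.34 and 1.69 without tamoxifen 3 and between −1.04 and −0.2 without tamoxifen+primidone 2, and all 10 members were negative without tamoxifen 2. Pparg remained between −1.44 and −0.9 with each library left out in turn.

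The third comparison set tamoxifen+primidone against the same control libraries as the first. The median log2 fold change was 2.29 against 0.012 over all tested genes, and the 8 genes were higher by 2.31-fold (Fabp4) to 9.95-fold (Cfd). Retn changed by 3.14 ± 0.95 (SE, edgeR adjusted p = 0.092), Cfd by 3.31 ± 1.02 (edgeR adjusted p = 0.11), Car3 by 2.63 ± 0.93 (edgeR adjusted p = 0.15) and Adipoq by 2.44 ± 0.87 (edgeR adjusted p = 0.14). Pparg was 2.18-fold lower, at −1.13 ± 0.35 (edgeR adjusted p = 0.095). With edgeR 0 of 10 passed, against 5.35% of tested genes, while 7 of 10 had an unadjusted p under 0.05, against 23.2%. DESeq2 called 6 of 10, against 11.7%, with Adipoq, Car3, Cfd, Lep and Retn higher and Pparg lower. Ranges did not overlap for 7 genes that were higher (Adipoq, Lep, Plin1, Cidec, Cfd, Retn and Car3), where 14.1% of tested genes were, and for Pparg, which was lower, as 15.1% of tested genes were. Without tamoxifen+primidone 2 the median was 1.44 and Fabp4 stood at 0.11 on the log2 scale. Over all 3 groups, the edgeR F test called 0 of 10, against 3.84% of tested genes, with 3 of 10 at an unadjusted p under 0.05 (against 23.4%), and DESeq2 called Cfd and Pparg (against 14.7%).

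**Figure D3:**
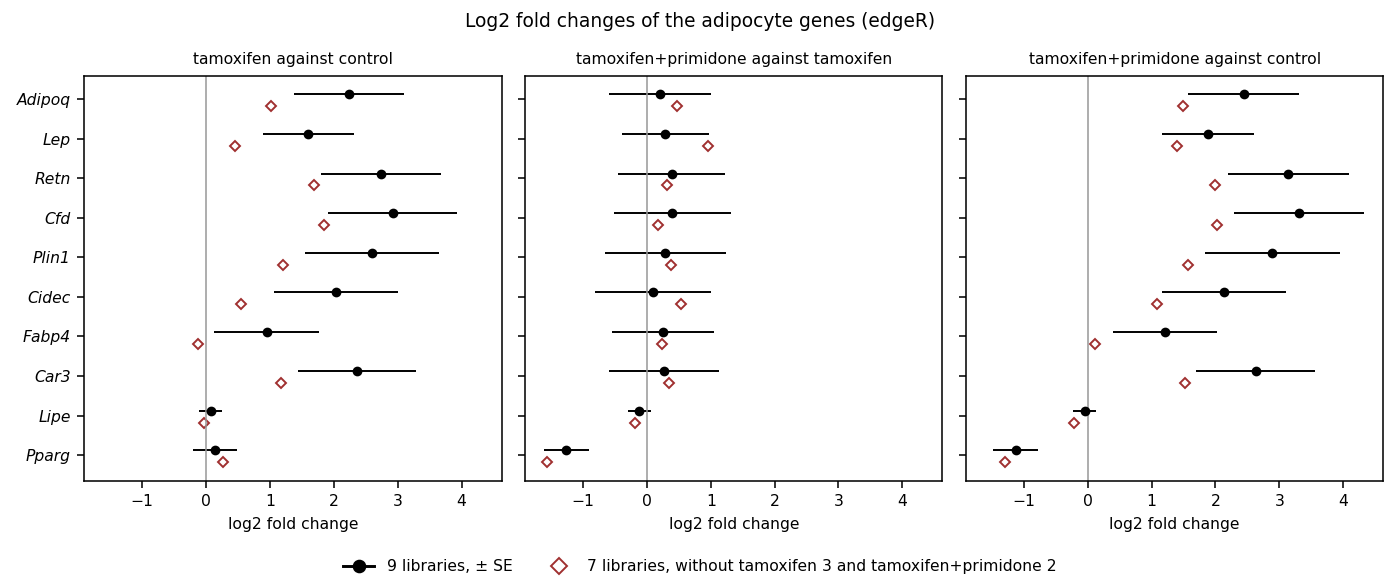
Log2 fold changes of the 10 genes from edgeR in the 3 comparisons, as filled circles with standard errors from the 9 libraries and as open diamonds from the 7 libraries left without tamoxifen 3 and tamoxifen+primidone 2. Against control, Adipoq lies at 2.24 and 2.44 with all libraries and at 1.01 and 1.49 with 7, and Pparg alone lies below −1 in the comparisons that involve primidone.

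Other genes of white adipocytes followed in part. Of 24 such genes, none passed edgeR in tamoxifen against control (1.53% of all tested genes did), with 18 positive and a median log2 fold change of 0.4. In tamoxifen+primidone against control, where 5.35% of all tested genes passed, 2 of 24 rose and 1 fell. Pck1, the enzyme that feeds glycerol synthesis in fat and glucose synthesis in liver, rose by 1.67 ± 0.4 (edgeR adjusted p = 0.048), and Klf15, a transcription factor of fat and muscle metabolism, rose by 0.76 ± 0.19 (edgeR adjusted p = 0.047). Pnpla2, the triglyceride lipase that acts before hormone-sensitive lipase, fell by 0.42 ± 0.1 on the log2 scale (edgeR adjusted p = 0.038). In 10 of the 24 genes the 2 highest libraries were tamoxifen 3 and tamoxifen+primidone 2. Among these 10, Nnat, an imprinted gene active in fat, stood at 7.39 and 11.1 CPM there and at 1.12 to 3.28 in the other 7 libraries, and Lpl, lipoprotein lipase, at 140 and 185 against 60.5 to 106. Dgat2, which makes triglyceride and was the most abundant of the 24 by FPKM, stood at 378 and 282 CPM there against 228 to 339, so that tamoxifen+primidone 2 lay within the range of the other 7.

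Fat synthesis genes numbered 12, of which 0 passed in tamoxifen against control, where 1.53% of tested genes did. In tamoxifen+primidone against control, where 5.35% of tested genes passed, 2 of the 12 rose. They were Acaca, acetyl-CoA carboxylase, by 0.71 ± 0.16 (edgeR adjusted p = 0.039), and Scd2, a fatty acid desaturase, by 0.58 ± 0.11 (edgeR adjusted p = 0.02). Scd1, the desaturase typical of fat and liver, did not pass (1.47 ± 0.42, edgeR adjusted p = 0.085), and stood at 168 and 186 CPM in tamoxifen 3 and tamoxifen+primidone 2 against 40.3 to 90.8 in the other 7 libraries. Of 5 receptor genes for adiponectin, leptin and insulin, none passed edgeR in any of the 3 comparisons, where 1.53%, 0.0132% and 5.35% of tested genes did. Adipor1 stood at 186 ± 4.44, 179 ± 9.35 and 167 ± 17 CPM (SD, n = 3) in control, tamoxifen and tamoxifen+primidone libraries, and Lepr, the leptin receptor, at 73.8 ± 4.52, 51.2 ± 13.2 and 64.1 ± 14.9. Of 12 partners and regulators of PPARG none passed in any of them. Rxra, its most abundant RXR partner by FPKM, stood at 127 ± 7.55, 123 ± 9.27 and 121 ± 4.94 CPM. Cebpb, a C/EBP factor of early fat cell differentiation, stood at 78.7 ± 5.85, 96.1 ± 13.1 and 76.6 ± 2.82 CPM, and Cebpa, one of mature fat cells, at 19.9 ± 3.26, 26.9 ± 3.82 and 31.6 ± 11.4.

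By profile, the genes outside the set closest to Adipoq were ranked by the root-mean-square distance between log2 CPM values centred over the 9 libraries, among 13689 genes with a mean of at least 1 CPM. Members of the set lay at 0.14 (Car3), 0.22 (Cidec), 0.26 (Plin1), 0.37 (Retn), 0.46 (Lep), 0.49 (Cfd) and 0.64 (Fabp4), and Lipe and Pparg at 1.24 and 1.65. The closest 10 others were Cyp2e1 (0.44), Nnat (0.46), Slc36a2 (0.53), Scd1 (0.62), Serpina1d (0.64), Mup3 (0.66), Ttr (0.66), Hp (0.69), Apoc1 (0.7) and Kng1 (0.7), and the same 10 were closest to the mean profile of the set. Slc36a2 is an amino acid transporter known from brown and beige fat, and Hp encodes haptoglobin, secreted by liver and fat. Cyp2e1, Serpina1d, Mup3, Ttr and Kng1 are chiefly known from liver.

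Markers of liver and of mesothelium, the lining of the uterine surface, moved with the groups too. Of 15 hepatocyte markers, 4 rose in tamoxifen and 12 in tamoxifen+primidone against control, where 1.53% and 5.35% of tested genes passed in either direction. All 15 were present in each library. Their summed level was 71.5 to 88.5 CPM in the controls, 142, 120 and 264 with tamoxifen and 268, 298 and 272 with tamoxifen+primidone. Among the 100 profiles nearest to Adipoq were 13 of the 14 hepatocyte markers and 6 of the 12 mesothelium markers in that pool, against 5 of 20 other white adipocyte genes. The 1 CPM limit of the pool had left out Acvr1c, Adrb3, Aqp7 and Mrap of the white adipocyte list. Of these, all but Aqp7 had their 2 highest values in tamoxifen 3 and tamoxifen+primidone 2. The distance also grows with a difference in the size of a change, so these counts do not rank the lists by shared pattern. Alb, Apoc3, Cyp2e1 and Ttr, 4 of the 15 hepatocyte markers, had their 2 highest values in tamoxifen 3 and tamoxifen+primidone 2, where 2.09% of tested genes did. Their margins were narrower than that of Adipoq, with Alb at 101 and 95.8 CPM there and at most 94.6 in the other libraries. Cyp2e1 had the widest of them, at 23.2 and 21.8 CPM against at most 14.9. Tamoxifen 3 was high in both lists, while the summed hepatocyte level of the 3 tamoxifen+primidone libraries differed less than their adipocyte genes. Alb, albumin, stood at 94.6, 95.8 and 93.5 CPM in them, where Adipoq stood at 8.48, 27.7 and 6.04. Of 12 mesothelium markers, 1 rose in tamoxifen against control (Msln, mesothelin, by 1.9 ± 0.35, edgeR adjusted p = 0.04) and 5 in tamoxifen+primidone against control, beside the same 1.53% and 5.35% of tested genes. The median of this list over the control mean was 0.99, 0.27 and 1.1 on the log2 scale in tamoxifen and 1.2, 1.24 and 0.91 in tamoxifen+primidone libraries. Its lowest value among these 6, in tamoxifen 2, fell in the library with the least Adipoq of the 6, but it did not set tamoxifen+primidone 2 apart from the other 2 of its group. The summed level of this list, most of it the epithelial keratin Krt19, was 1090 to 1140 CPM in the controls, 1130 to 1390 with tamoxifen and 1020 to 1180 with tamoxifen+primidone. The part of either list in the adipocyte values was not tested.

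Cell types that share genes with white fat were looked at in the same way, beside the 1.53% of tested genes that passed edgeR in tamoxifen against control. In tamoxifen+primidone against tamoxifen 0.0132% passed, and in tamoxifen+primidone against control 5.35%. The median of the brown adipocyte list over the control mean was highest in tamoxifen+primidone 2 (0.86 on the log2 scale) and tamoxifen 3 (0.56), with at most 0.47 in the other 7 libraries. Yet 0 of the 8 tested genes of that list had these as their 2 highest libraries. Cidea, Cox7a1, Cox8b, Elovl3 and Ebf2 had at most 30 counts in any library, so the median carries a large counting error. Brown fat was represented by Ucp1, its defining gene, at 0 counts in 7 libraries and 1 count in each of tamoxifen 1 and tamoxifen 3. Of the brown adipocyte list, Dio2, a deiodinase that the uterus also expresses, rose by 1.07 ± 0.17 (edgeR adjusted p = 0.024) in tamoxifen and by 1.41 ± 0.17 (edgeR adjusted p = 0.0043) in tamoxifen+primidone against control, and no other member passed. Skeletal muscle myosins Myh1, Myh2 and Myh4, named here because muscle also makes Car3, were at most 0.193 CPM in any library, and Mb at most 0.216. Of the same list, Tnni2 stood at 2.58 to 5.74 CPM, Actn3 at 1.84 to 4.27 and Tnnt3 at 1.51 to 4.16. The summed level of the 10 skeletal muscle markers was 67.3 to 83.9 CPM in the controls, 35.6 to 67.4 with tamoxifen and 49.4 to 60.1 with tamoxifen+primidone, most of it Acta1. None of the 11 tested of 12 endothelium markers passed, and the sum of the 12 was 546 to 640, 486 to 582 and 491 to 639 CPM, where Fabp4 ranged from 10.7 to 72.1. Of 10 macrophage markers, 9 were positive in tamoxifen against control (median log2 fold change 0.38) and 8 in tamoxifen+primidone against control (median 0.21). Cd68 alone passed, and fell by 0.59 ± 0.13 in tamoxifen+primidone against control (edgeR adjusted p = 0.034). Their sum was highest in tamoxifen+primidone 2 (1400 CPM) and tamoxifen 1 (1360), the library with the most Pparg, and their median over the control mean was 0.6 on the log2 scale in both. The part of the brown adipocyte and macrophage lists in the values of the 10 genes was not tested. None of the 8 tested of 9 adipocyte progenitor genes passed, and the most abundant by FPKM, Ly6a, stood at 202 ± 20.8, 258 ± 79.4 and 250 ± 151 CPM across the 3 groups (SD, n = 3).

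**Figure D4:**
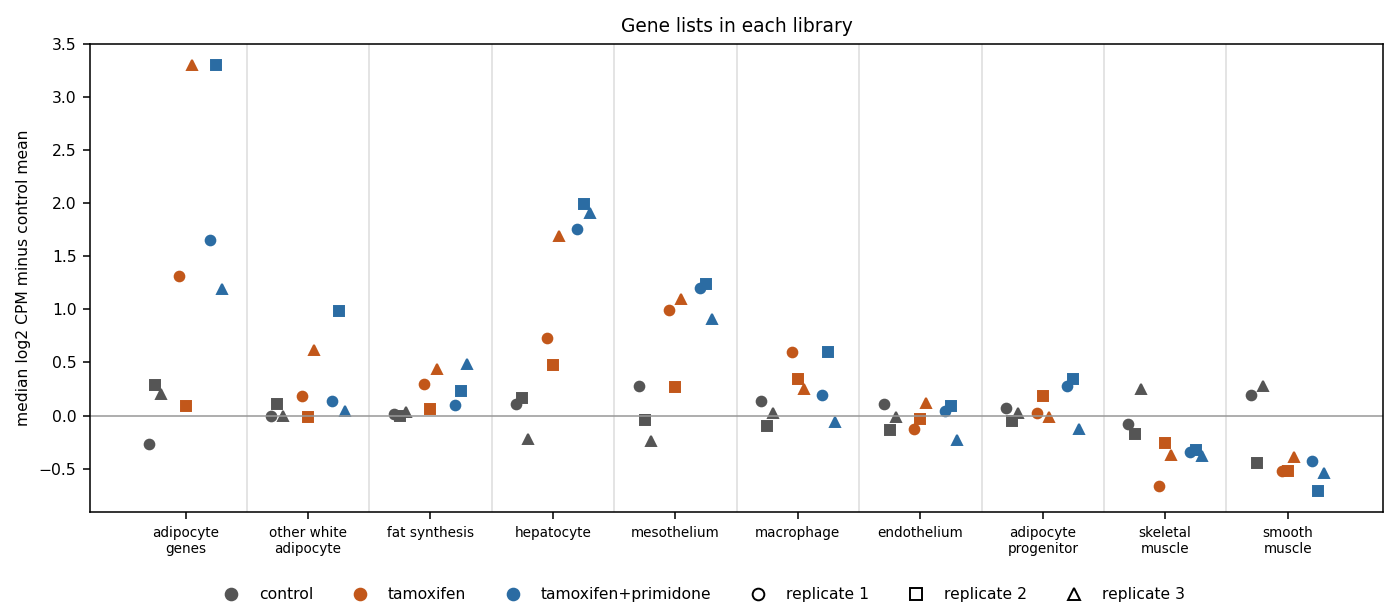
Median log2 CPM of each gene list in each library, minus its mean in the control libraries, with colours for groups and symbols for replicate numbers. The 10 adipocyte genes reach 3.3 in tamoxifen 3 and in tamoxifen+primidone 2 and 0.09 in tamoxifen 2, whereas hepatocyte markers lie between 1.76 and 1.99 in all 3 tamoxifen+primidone libraries.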

How the data were processed

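Total RNA from 9 uteri was sequenced, and each column was matched by title to its group and replicate. The submitters' processing notes name build GRCm39 and the tools HISAT2, HTSeq, DESeq2 and R 3.2.0. They state neither annotation nor strand use, so reads of Cidec, Lipe and Car3 may include those of RefSeq genes that overlap them and are not in the table. The authors deposited whole-number counts per gene symbol and FPKM values, whose ratio to the counts implied 1 length per gene within 0.1%, for the same genes. FPKM served only to order levels between genes. Library totals (36393120 to 39958443) limit precision for Lep, Plin1 and Retn. Replicates differed beyond counting noise (chi-square per degree of freedom 20.24 to 81.35).

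Counts were fitted in R 4.3.3 with edgeR 4.0.16 (TMM, default low-count filter by group, robust quasi-likelihood F test, all 9 libraries in 1 fit, Benjamini-Hochberg over 15186 genes, threshold 0.05), after a test on simulated data. Each SE was derived from the log2 fold change and its F statistic. Alternatives were DESeq2 1.42.0, other scalings, no filter, only the groups compared, a replicate block and leaving out libraries. Leaving out tamoxifen 3 and tamoxifen+primidone 2 together was added after the data were seen.

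The members and lists were chosen with earlier results of these data known. Named genes are the members, list members that passed or else the 2 with the highest mean FPKM of a list, and the 10 nearest profiles (prior count 2). This rule was not followed throughout, as not all hepatocyte and mesothelium markers that passed are named, and no endothelium marker is. Lpl, Dgat2, Lepr, Cebpa, Esr1, Ucp1, Krt19, Acta1, the myosins, the other skeletal muscle genes named and the brown adipocyte genes with low counts were picked with their values in view. The nerve, ovary and oviduct, smooth muscle and uterus lists are summarised in the closing section.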

Additional observations from a re-analysis of the deposited data

How the results depend on the processing

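Of the 4 tests, edgeR called 0 of the 10 adipocyte genes in each. Of all tested genes it called 1.53% (tamoxifen against control), 0.0132% (tamoxifen+primidone against tamoxifen), 5.35% (tamoxifen+primidone against control) and 3.84% (any difference). The count was also 0 with DESeq2 size factors, upper-quartile factors, no low-count filter and only the 2 groups compared (3 pairwise tests). With both tamoxifen 3 and tamoxifen+primidone 2 left out it was 0 as well, against 0.706%, 0.582%, 2.44% and 2.21% of tested genes in the same order. DESeq2 called 1 (tamoxifen against control), 1 (tamoxifen+primidone against tamoxifen), 6 (tamoxifen+primidone against control) and 2 (any difference). The shares of all genes it tested were 7.11%, 3.9%, 11.7% and 14.7%. The cause of the difference from edgeR was not tested. With 1 library left out the count was 0 throughout, except 0 to 1 in tamoxifen+primidone against control, where Retn passed without tamoxifen 2 (edgeR adjusted p = 0.049). In these fits 0.143% to 2.86% of tested genes passed in tamoxifen against control and 0% to 0.554% in tamoxifen+primidone against tamoxifen. The shares were 0.794% to 5.2% in tamoxifen+primidone against control and 0.384% to 4.33% for any difference. With so few genes called, a count of 0 of 10 says little about the members. With the replicate block the count was 0 in each of the 4 tests (smallest edgeR adjusted p = 0.24, 0.23, 0.15 and 0.17). The numbers are not stated to pair animals, and same-numbered libraries had deviations from group means that correlated at −0.134 to 0.177 across genes, so they were read as numbers only. Over all genes the block moved the calls from 233 to 317, from 2 to 53 and from 812 to 984.

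With both tamoxifen 3 and tamoxifen+primidone 2 left out, Fabp4 and Lipe turned to −0.13 and −0.04 on the log2 scale in tamoxifen against control. Leaving out 1 library gave −0.13 to 1.35 for Fabp4, −0.04 to 0.19 for Lipe and −0.23 to 0.32 for Pparg in that comparison, and −0.22 to 0.11 for Lipe in tamoxifen+primidone against control. In tamoxifen+primidone against tamoxifen it gave −0.76 to 1.43 for Adipoq, −0.2 to 1.44 for Lep, −1.04 to 1.69 for Plin1, −0.95 to 1.58 for Cidec, −0.85 to 1.34 for Fabp4, −0.9 to 1.47 for Cfd, −0.75 to 1.45 for Retn, −0.84 to 1.45 for Car3 and −0.3 to 0.04 for Lipe. Libraries that turned signs there were tamoxifen 1, tamoxifen 2, tamoxifen+primidone 2 and, for Lipe, tamoxifen+primidone 3.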

Other observations

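Smooth muscle markers of the myometrium ran against the adipocyte genes at the level of groups. Of 10 markers, 0 passed edgeR in tamoxifen against control (9 negative, median log2 fold change −0.5), where 1.53% of tested genes did. In tamoxifen+primidone against control, where 5.35% of tested genes passed, 2 of the 10 fell. They were Myh11, by 0.69 ± 0.16 (edgeR adjusted p = 0.036), and Actg2, by 1.18 ± 0.22 (edgeR adjusted p = 0.021). Within groups the order differed. In the tamoxifen group the median over the control mean was highest in tamoxifen 3, the library with the most Adipoq, at −0.39 against −0.52 and −0.52. In the tamoxifen+primidone group it was lowest in the library with the most Adipoq, replicate 2, at −0.71 against −0.43 and −0.54. Control 2, which had the most Adipoq of the controls (3.11 CPM), had the lowest smooth muscle median of the 3, at −0.45 against 0.19 and 0.28. Its Adipoq rested on 116 counts against 105 in control 3, a gap within counting error.

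Of 10 uterus markers, 0 passed in tamoxifen against control, where 1.53% of tested genes did. In tamoxifen+primidone against control, where 5.35% of tested genes passed, Hand2, a stromal transcription factor, rose by 0.7 ± 0.1 (edgeR adjusted p = 0.0078). Ltf, lactotransferrin, fell by 1.04 ± 0.18 there (edgeR adjusted p = 0.014). None of the 6 tested nerve and Schwann cell markers or the 5 tested ovary and oviduct markers passed in any comparison, while the summed level of the 9 ovary and oviduct markers found was 18.6 to 48.7 CPM in control, 67.3 to 274 in tamoxifen and 6.11 to 10.2 in tamoxifen+primidone libraries. Ovgp1, the oviductal glycoprotein, made up most of it in the tamoxifen libraries (267, 61.9 and 124 CPM) and in control 2 (36.5 CPM), and stood at 0.684 to 0.982 CPM in tamoxifen+primidone libraries. Tamoxifen 1 was the highest there, unlike in the adipocyte genes.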
